A study of Mus musculus with 15 samples.

Results

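Expression of 10 Wnt pathway genes was followed through bleomycin injury of the mouse lung: the ligands Wnt2, Wnt3a, Wnt5a, Wnt7a and Wnt10a, the secreted inhibitors Sfrp1, Sfrp2 and Wif1, the feedback regulator Axin2 and the R-spondin receptor Lgr5. They were taken by symbol from the 33340 genes of the count table, with Ensembl identifiers mapped through the GENCODE M21 annotation, and all 10 were found. Polyadenylated RNA came from whole lungs of C57BL/6 mice, with 4 libraries titled as day 0 controls and, after intratracheal bleomycin at 5 U/kg, 4 libraries at day 7, 4 at day 14 and 3 at day 21. The study's methods describe young adult males. Bleomycin is a DNA-damaging drug used to scar the lung, and a single dose gives an injury that in mice can later resolve. Bulk RNA holds every cell type of the organ, so that fewer cells of a type and less RNA per cell cannot be told apart in any of these values.

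Wnt proteins are lipid-modified signals that bind Frizzled receptors with the co-receptors LRP5 and LRP6. In the canonical branch this stops the destruction complex from degrading beta-catenin, which then acts with TCF/LEF factors on target genes, while other branches work through receptors such as ROR1 and ROR2. The pathway is known in the lung for its part in development and in the renewal of alveolar type 2 cells, and Axin2 is a widely used readout of its canonical branch. Secreted frizzled-related proteins and WIF1 bind Wnt ligands outside the cell.

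Promoters from RefSeq (build GRCm38.p6, from 250 bases before to 50 after the start of the gene) were at hand for 6 of the 10 genes: Wnt2, Wnt3a, Wnt7a, Axin2, Sfrp2 and Wif1. They were searched on both strands for the TCF/LEF core CTTTGA, which 16% of 32817 promoters of 300 bases held. None of the 6 windows held it, which says only that these letters were not in these windows. All 6 were rich in GC, at 63.0% for Wif1, 65.7% for Wnt2, 66.0% for Sfrp2, 70.0% for Axin2, 76.0% for Wnt7a and 86.3% for Wnt3a, against a median of 52.7% over all promoters. They held 22 to 45 CpG dinucleotides each, against a median of 7. The 4 windows printed here stand for 4 courses over time, that of the pathway readout Axin2, of Wnt7a, which was higher at each later day, and of Wnt2 and Wif1, which were lower from day 14 on. Capitals mark CpG dinucleotides, and each stretch ends at the base before the first annotated start of the gene.

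Axin2 promoter, chr11:108920099-108920348, plus strand: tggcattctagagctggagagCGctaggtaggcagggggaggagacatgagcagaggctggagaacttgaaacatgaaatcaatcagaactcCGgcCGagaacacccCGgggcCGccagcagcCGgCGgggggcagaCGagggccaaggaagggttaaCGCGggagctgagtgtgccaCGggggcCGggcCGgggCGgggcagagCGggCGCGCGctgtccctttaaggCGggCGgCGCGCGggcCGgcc
Wnt7a promoter, chr6:91411364-91411603, minus strand: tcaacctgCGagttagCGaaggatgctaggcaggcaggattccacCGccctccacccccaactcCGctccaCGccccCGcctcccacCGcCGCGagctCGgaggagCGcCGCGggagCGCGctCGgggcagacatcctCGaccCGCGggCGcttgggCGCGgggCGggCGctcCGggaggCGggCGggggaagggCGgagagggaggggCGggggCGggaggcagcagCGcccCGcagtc
Wnt2 promoter, chr6:18030586-18030695, minus strand: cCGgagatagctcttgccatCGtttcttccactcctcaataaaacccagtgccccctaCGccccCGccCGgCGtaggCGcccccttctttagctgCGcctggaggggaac
Wif1 promoter, chr10:121033754-121033959, plus strand: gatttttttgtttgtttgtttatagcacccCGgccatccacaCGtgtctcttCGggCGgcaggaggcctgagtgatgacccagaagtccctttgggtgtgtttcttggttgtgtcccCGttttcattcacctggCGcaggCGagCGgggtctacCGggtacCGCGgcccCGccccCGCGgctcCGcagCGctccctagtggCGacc

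The Axin2 stretch of 250 bases held 24 CpG dinucleotides and the Wnt7a stretch of 240 bases held 32. In the 110 bases of Wnt2 there were 8, and in the 206 bases of Wif1 there were 17.

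Total counts ranged from 15652008 to 18020661 per library. Values are CPM, counts scaled to a common library size after adjustment by TMM factors, with the SD between libraries. A gene was called changed at an adjusted p under 0.05 in edgeR's quasi-likelihood test and a fold change over 1.5, and log2 fold changes are given with standard errors (SE). Mitochondrial genes took from 2.03% to 4.22% of the counts of a library, and a further fit held this share as a term. It was 2.28% to 4.22% at day 0, 2.03% to 2.15% at day 7, 2.1% to 4.14% at day 14 and 2.66% to 4.01% at day 21. Day 0 replicate 4 carries bleomycin in its treatment label and was kept as a control by its title. The libraries held the markers of the labelled tissue. The 5 type 2 cell markers (Sftpc, Sftpb, Lamp3, Abca3 and Etv5) summed to 21570 to 31330 CPM at day 0, whereas the 6 tracheal cartilage markers stayed at or below 7.95 CPM in all 15 libraries. Cardiac muscle markers ranged from 17.7 to 723 CPM and were highest in day 21 replicate 1 and day 7 replicate 4.

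All 10 genes entered the test, Wnt10a through its later days alone, since each of its controls lay under the 0.586 CPM that the filter on low counts asked for. At day 7, 4 of the 10 changed, all of them higher (Wnt5a, Wnt7a, Wnt10a and Sfrp1) and none lower, where 16.1% of 17457 genes tested changed, 8.78% higher and 7.36% lower. At day 14, 6 changed, with the same 4 genes higher and Wnt2 and Wif1 lower, against 23.1% of all genes (12.0% higher, 11.2% lower). At day 21, 8 changed, with Sfrp2 joining the higher genes and Axin2 the lower ones, against 22.5% of all genes (12.4% higher, 10.1% lower). Wnt10a, given its way into the test, had to differ, and over the other 9 genes the counts were 3, 5 and 7. Wnt3a and Lgr5 were not called at any day. Under glmTreat, edgeR's test of whether a change exceeds 1.5-fold, each call of Wnt2 and Wnt5a was lost, as were those of Axin2 and Sfrp2 at day 21 (adjusted p 0.0838 to 0.777). Without day 0 replicate 4, the control labelled with bleomycin, 4, 6 and 7 of the 10 were called, and the call that was lost was that of Sfrp2 at day 21 (log2 fold change 1.5, adjusted p 0.097, edgeR). The groups did not overlap with day 0 for 6 genes at day 7 (30.8% of all genes), for 6 at day 14 (31.1%) and for all 10 at day 21 (35.5%), each count Wnt10a included, and without it for 5, 5 and 9 of 9. The median log2 fold change of the 10 genes was 0.30, 0.24 and 0.10 at days 7, 14 and 21, beside 0.01, 0.02 and 0.02 over all genes, and over the 9 genes apart from Wnt10a it was negative, at -0.05, -0.18 and -0.65. These comparisons share the same day 0 libraries.

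**Figure D1:**
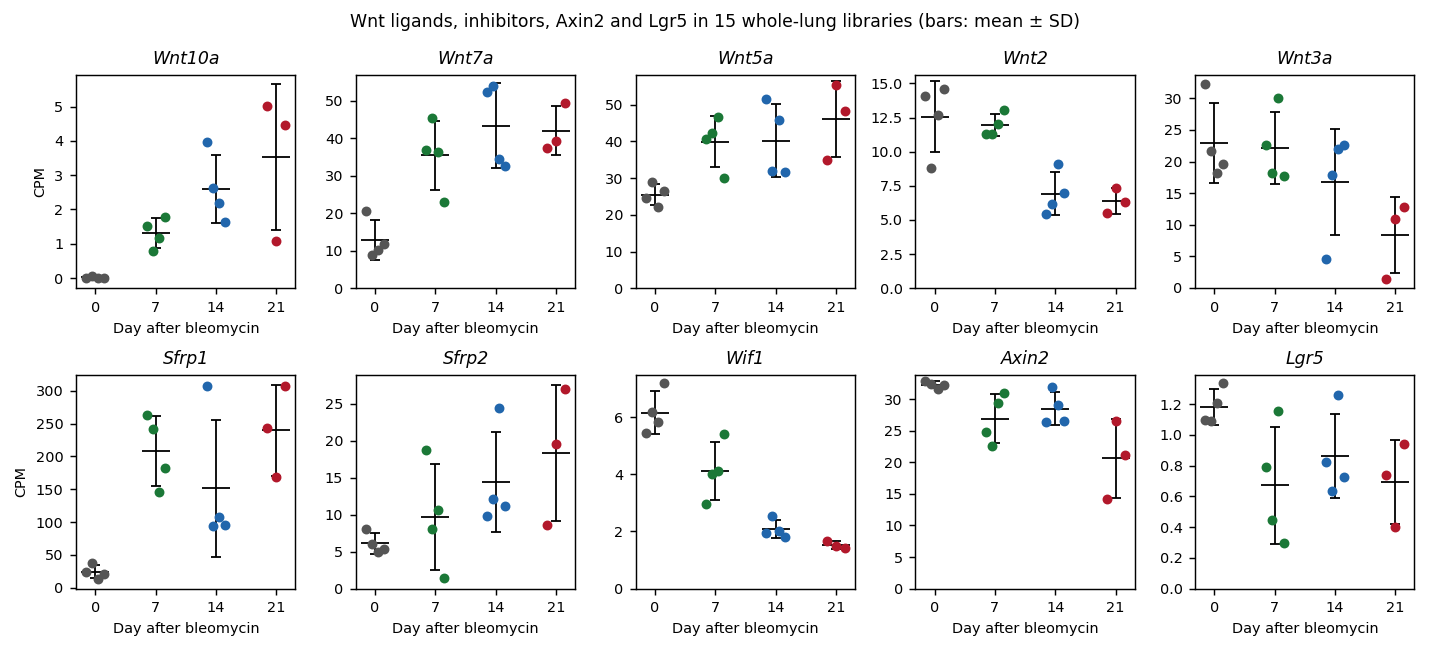
CPM of each gene (y axis, linear, 1 scale per panel) by day after bleomycin (x axis), 1 point per library with bars for mean ± SD. Wnt10a leaves a level near 0 after day 0, Sfrp1 and Wnt7a lie above every control at each later day, and Wif1 falls from 5.44 to 7.20 CPM at day 0 to 1.41 to 1.67 CPM at day 21.

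Wnt10a, a ligand of the canonical branch, lies on chromosome 1 at 74791516 to 74804179 (GRCm38, plus strand) and was nearly absent from control lungs. Its CPM at day 0 was 0.0605 in replicate 2, from a single read, and 0 in the other libraries. At day 7 it was 1.53, 0.781, 1.15 and 1.78 in replicates 1 to 4, at day 14 it was 3.96, 2.61, 2.17 and 1.63, and at day 21 it was 5.01, 1.08 and 4.47. Every bleomycin library lay above every control. The 92 reads of day 7 against 1 read at day 0 gave a depth-adjusted ratio of 85.6 (95% interval 14.98 to 3417, counting error only), the 173 reads of day 14 gave 170.5 (30.2 to 6772) and the 176 reads of day 21 gave 227.8 (40.4 to 9049). Its calls are a description and carry no p here. Day 21 replicate 2, at 1.08 CPM, was lower than every day 14 library, and days 14 and 21 overlapped. Its neighbour Wnt6, 6193 bases away on the same strand, lay at 0.1905 to 0.544 CPM at day 0, 0.535 to 1.15 at day 7, 0.181 to 2.01 at day 14 and 0.342 to 2.94 at day 21. Its controls were also all under the filter level, and each later day overlapped with them, so that its call by edgeR, at day 21 alone, carries no p here either.

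Wnt7a (chromosome 6, 91363981 to 91411363, minus strand) is a ligand best known from limb patterning and the female reproductive tract. It was measured at 20.6, 8.95, 10.2 and 11.9 CPM in the day 0 libraries, at 37.0, 45.5, 36.25 and 23.1 CPM at day 7, at 52.3, 54.0, 34.6 and 32.7 CPM at day 14 and at 37.5, 39.2 and 49.5 CPM at day 21. No library of a later day reached down to the controls, although day 7 replicate 4 and day 0 replicate 1 came close. The log2 fold change against day 0 was 1.46 (SE 0.26, adjusted p 0.00132), 1.75 (SE 0.26, adjusted p 0.000164) and 1.71 (SE 0.28, adjusted p 0.00036) at days 7, 14 and 21, or 2.75, 3.36 and 3.26 times the control level. This rise held in each of the 20, 20 and 18 other fits of the 3 days.

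Wnt5a (chromosome 14, 28504750 to 28527448, plus strand), the classical ligand of the non-canonical branch and a partner of ROR2, rose less. Its CPM was 24.5, 28.8, 22.1 and 26.6 at day 0 and 40.5, 42.3, 46.7 and 30.1 at day 7. It was 51.6, 31.9, 45.7 and 31.7 at day 14 and 35.0, 55.3 and 48.2 at day 21. The groups did not overlap with the controls at any day, but the lowest bleomycin library (30.1) lay just above the highest control (28.8). Against day 0 the log2 fold change was 0.65 (SE 0.19, adjusted p 0.0198), 0.66 (SE 0.19, adjusted p 0.013) and 0.86 (SE 0.20, adjusted p 0.00435). The day 7 call was lost in 8 of 20 other fits, among them the fit with a term for the mitochondrial share (0.43, adjusted p 0.204) and those without day 0 replicate 1 or 3 or day 7 replicate 1, 2 or 3 (0.56 to 0.62, adjusted p 0.0502 to 0.0684). Beside glmTreat, the day 14 call was lost without day 14 replicate 1 (0.49, adjusted p 0.0573) and without day 0 replicate 3, where the log2 fold change of 0.57 missed the fold threshold, and among libraries of like mitochondrial share (0.57, adjusted p 0.087).

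Wnt2 (chromosome 6, 17988940 to 18030585, minus strand), a mesenchymal ligand known for its part in specifying the lung in the embryo, took the opposite course. Its CPM was 14.1, 8.83, 12.7 and 14.6 at day 0 and 11.3, 11.3, 12.0 and 13.1 at day 7, so that these groups overlapped. It was 5.44, 6.19, 9.10 and 6.94 at day 14 and 5.50, 7.35 and 6.29 at day 21. Day 0 replicate 2 was the lowest control, and day 14 replicate 3 alone exceeded it. Its log2 fold change was -0.07 (SE 0.18, adjusted p 0.809) at day 7, -0.86 (SE 0.19, adjusted p 0.00273) at day 14 and -0.97 (SE 0.21, adjusted p 0.00252) at day 21. The level was therefore 1.81 times lower than the control at day 14 and 1.96 times lower at day 21. The 5 alveolar fibroblast markers (Tcf21, Npnt, Inmt, Ces1d and Limch1), none at 0, summed to 4112 to 5080 CPM at day 0, 2164 to 2977 at day 7, 1336 to 1974 at day 14 and 1319 to 2263 at day 21, and their part in the fall of Wnt2 was not tested. Inmt and Ces1d were called lower at each day, Tcf21 and Npnt at days 14 and 21 and Limch1 at none.

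Wnt3a (chromosome 11, 59248033 to 59290752, minus strand), the ligand most used to activate the canonical branch in culture, was the ligand of this group with the highest level per kilobase in control lungs. Its CPM was 32.2, 21.7, 18.2 and 19.6 at day 0, 22.6, 18.2, 30.0 and 17.8 at day 7, 4.55, 17.9, 21.9 and 22.6 at day 14 and 1.48, 10.8 and 12.8 at day 21. Only at day 21 did all libraries lie below the controls. The log2 fold change of -1.45 (SE 0.55) at day 21 did not pass the test (adjusted p 0.0586), nor did those of -0.05 (SE 0.48, adjusted p 0.952) at day 7 and -0.45 (SE 0.48, adjusted p 0.504) at day 14. At day 21 the call was gained in 4 of 18 other fits. The 2 lowest values, in day 14 replicate 1 and day 21 replicate 1, came from the 2 libraries in which the summed type 2 cell markers (none at 0) were also lowest, at 6063 and 3738 CPM. The other day 14 libraries held 14290 to 17780 CPM of these markers and the other day 21 libraries 6085 and 7974 CPM. The part of these markers in the result was not tested. Without day 21 replicate 1 the day 21 change was -0.99 (adjusted p 0.129), and without day 14 replicate 1 the day 14 change was -0.16 (adjusted p 0.817).

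**Figure D2:**
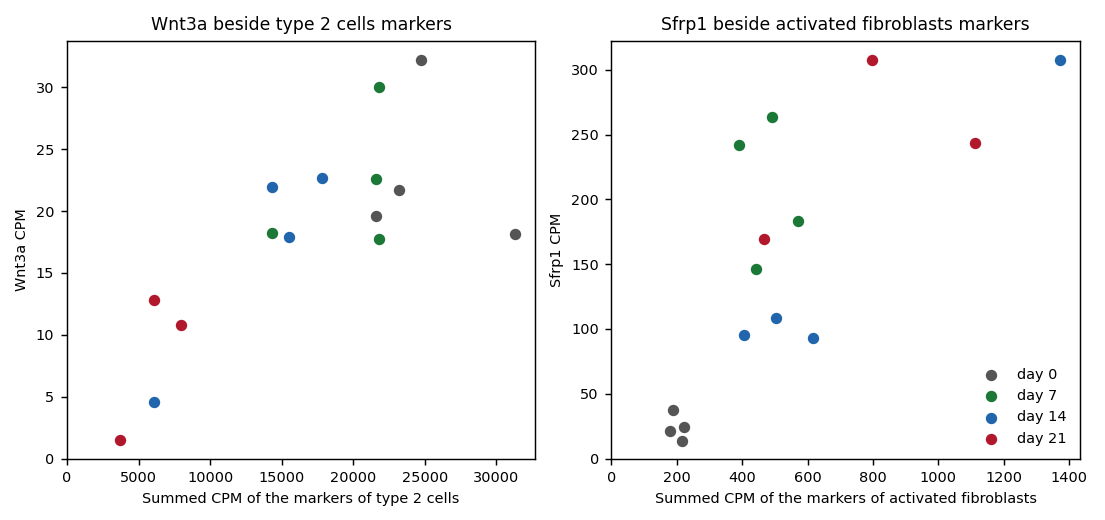
CPM of Wnt3a beside the summed CPM of the type 2 cell markers (left) and CPM of Sfrp1 beside that of the activated fibroblast markers (right), 1 point per library coloured by day. The 2 libraries lowest in Wnt3a, at 1.48 and 4.55 CPM, are also the 2 lowest in type 2 cell markers, at 3738 and 6063 CPM, and the 4 controls are lowest on both axes of the right panel.

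Among the inhibitors, Sfrp1 (chromosome 8, 23411502 to 23449632, plus strand) showed the largest rise in level. Its CPM was 24.1, 37.5, 13.6 and 21.2 at day 0, 263, 242, 146.5 and 183 at day 7, 307, 93.4, 108 and 95.7 at day 14 and 243, 169 and 308 at day 21. Every bleomycin library lay above every control, the lowest at 93.4 against the highest at 37.5. In log2 fold change Sfrp1 stood at 3.11 (SE 0.41, adjusted p 0.000132), 2.65 (SE 0.40, adjusted p 0.000166) and 3.32 (SE 0.42, adjusted p 5.38e-05), or 8.66, 6.27 and 9.96 times the control level. Day 14 replicate 1, at 307, stood apart from the other day 14 libraries, which lay at 93.4 to 108, and without it the day 14 change was 2.02 (adjusted p 0.000142). The same library held 1373 CPM of the 3 activated fibroblast markers (Cthrc1, Postn and Tnc, none at 0), against 406.5 to 616 CPM in the others of its day. These markers summed to 179 to 223 CPM at day 0, 389 to 570 at day 7 and 467 to 1112 at day 21. Tnc was called higher at each day, with a mean of 9.85 CPM at day 0 and 219.5 at day 7. Cthrc1 and Postn were called higher at days 14 and 21 but not at day 7. The part of the 3 markers in the change of Sfrp1 was not tested.

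Sfrp2 (chromosome 3, 83766321 to 83774316, plus strand), a close relative of Sfrp1, had a coefficient of variation of 22.7% at day 0 and of 73.9%, 47.2% and 50.5% at days 7, 14 and 21. Its CPM was 8.09, 5.99, 4.95 and 5.41 at day 0, 18.7, 8.04, 10.7 and 1.37 at day 7, 9.75, 12.1, 24.5 and 11.2 at day 14 and 8.53, 19.5 and 26.9 at day 21. Day 7 reached both above and below the controls, while days 14 and 21 lay above them. Its log2 fold change was 0.67 (SE 0.53, adjusted p 0.378) at day 7, 1.24 (SE 0.53, adjusted p 0.0857) at day 14 and 1.59 (SE 0.56, adjusted p 0.0437) at day 21. The day 21 call was lost in 9 of 18 other fits, among them those without any 1 of the 4 day 0 libraries (adjusted p 0.0599 to 0.0998) and without day 21 replicate 2 or 3 (1.5, adjusted p 0.0955, and 1.16, adjusted p 0.19). At day 14 the gene was called in 3 of 20 other fits, with 1.60 (adjusted p 0.0194) among libraries of like mitochondrial share.

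Wif1 (chromosome 10, 121033960 to 121100650, plus strand), which binds Wnt ligands through its own WIF domain, fell. Its CPM was 5.44, 6.17, 5.84 and 7.20 at day 0, 2.95, 4.02, 4.12 and 5.41 at day 7, 1.95, 2.55, 2.00 and 1.81 at day 14 and 1.67, 1.48 and 1.41 at day 21. The 4 days formed a descending series in which no group overlapped with the one before it. The log2 fold change against day 0 was -0.58 (SE 0.21, adjusted p 0.0512) at day 7, which missed the threshold, then -1.57 (SE 0.22, adjusted p 7.4e-05) at day 14 and -2.01 (SE 0.24, adjusted p 3.59e-05) at day 21. The level was thus 2.96 and 4.04 times lower than the control at the last 2 days. At day 7 it was called in 8 of 20 other fits, DESeq2 among them (-0.61, adjusted p 0.0208).

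Axin2 (chromosome 11, 108920349 to 108950783, plus strand), which is induced by the canonical branch and then acts as a scaffold of the destruction complex, did not rise at any day. Its CPM was 33.0, 32.5, 31.7 and 32.3 at day 0, the tightest group of any of these genes on any day (coefficient of variation 1.62%). It was 24.8, 22.5, 29.4 and 31.0 at day 7, 26.4, 32.0, 29.2 and 26.6 at day 14 and 14.2, 26.6 and 21.1 at day 21. All day 7 and day 21 libraries lay below all controls, whereas day 14 replicate 2 lay within them. The log2 fold change was -0.26 (SE 0.16, adjusted p 0.228) at day 7, -0.18 (SE 0.16, adjusted p 0.4) at day 14 and -0.65 (SE 0.17, adjusted p 0.01) at day 21, a level 1.57 times lower. The day 21 call rested on replicate 1. Without it the log2 fold change was -0.47 (adjusted p 0.0317), under the fold threshold. That library also had the lowest summed level of the 5 type 1 cell markers (Ager, Hopx, Aqp5, Rtkn2 and Pdpn), 1515 CPM against 2824 to 4185 at day 0, and the highest cardiac muscle markers, and the part of either in the result was not tested. Against day 0 the type 1 list divided at day 21, with Hopx and Rtkn2 called lower, Pdpn called higher and Ager and Aqp5 not called.

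Lgr5 (chromosome 10, 115450311 to 115587780, minus strand), a receptor for R-spondins that marks stem cells of the gut, was barely detected. It had 17 to 24 reads per library at day 0 and 5 to 22 later. Its CPM was 1.10, 1.09, 1.21 and 1.34 at day 0, 0.793, 0.447, 1.15 and 0.297 at day 7, 0.827, 0.638, 1.26 and 0.724 at day 14 and 0.742, 0.399 and 0.941 at day 21. The log2 fold change of -0.80 (SE 0.40, adjusted p 0.155), -0.45 (SE 0.40, adjusted p 0.412) and -0.77 (SE 0.44, adjusted p 0.208) did not pass the test at any day. The day 21 libraries lay below all controls, while days 7 and 14 overlapped with them. Antisense genes overlap exons of Wnt5a, Axin2 and Sfrp2, and had at most 9, 7 and 2 reads in any library. As the strand setting of the counting was not given, reads of either strand at these exons cannot be told apart.

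**Figure D3:**
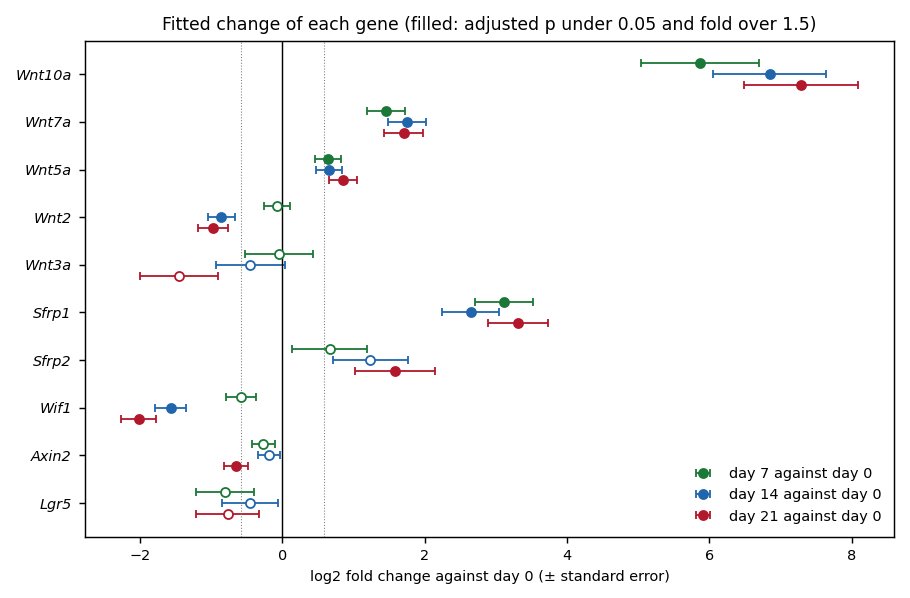
Fitted log2 fold change against day 0 (x axis, bars ± SE) of each gene at days 7, 14 and 21, filled where the gene was called. Wnt10a reaches 5.86, 6.85 and 7.28 from a control group with 1 read, so its position depends on the prior count of the fit, and dotted lines mark a fold change of 1.5.

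Between day 7 and day 14, 2 of the 10 genes changed, both lower and none higher, where 6.0% of all genes changed, 3.23% lower and 2.77% higher. These were Wnt2 at a log2 fold change of -0.79 (SE 0.19, adjusted p 0.024) and Wif1 at -0.99 (SE 0.21, adjusted p 0.0175). They were the 2 of the 10 genes whose groups did not overlap between these days, a share near the 16.3% of all genes. Both calls were lost without day 7 replicate 4 (-0.74, adjusted p 0.0685, and -0.83, adjusted p 0.0582), and that of Wnt2 also without day 7 replicate 3 (-0.78, adjusted p 0.0556) or day 14 replicate 2 (-0.73, adjusted p 0.0711). Day 7 replicate 4 was the library with 608 CPM of cardiac muscle markers, against 30.1 to 58.1 in the others of day 7. With a term for the mitochondrial share Wif1 was no longer called (-1.11, adjusted p 0.0637). Between day 14 and day 21 none of the 10 genes changed by edgeR, nor did any of the 17457 genes (0.0%). At an unadjusted p under 0.05 there was 1 of the 10, Axin2 (-0.47), and 1714 of all genes by the same edgeR test. DESeq2 called none of the 10 and 106 of all genes. The edgeR count over all genes rose to 127 when day 14 replicate 1 was left out, to 24 and 3 on leaving out replicate 3 or 2 of day 21, and to 37 when no gene was filtered, with none of the 10 called in any of these fits. Wif1 alone of the 10 had groups that did not overlap between these 2 days, a share near the 6.0% of all genes.

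Levels of different genes were set side by side per kilobase of exon. At day 0 the order ran from Wnt3a (8.30 CPM per kilobase) over Axin2 (5.88), Wnt2 (5.56), Sfrp1 (5.51), Wnt7a (4.07), Wnt5a (3.26), Sfrp2 (2.84) and Wif1 (2.54) to Lgr5 (0.115) and Wnt10a (0.00613). From Axin2 to Wif1 each gene overlapped with the next over the 4 libraries, so that this order is not fixed beyond the spread. After bleomycin Sfrp1 came first, at 47.7, 34.6 and 54.9 CPM per kilobase at days 7, 14 and 21, and did not overlap with Wnt7a, which ranked 2, at 11.2, 13.7 and 13.3. Wnt3a ranked 3 at day 7, 4 at day 14 and 6 at day 21, while Wif1 ended below Wnt10a, with which it overlapped at days 14 and 21.

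The same scale shows how much of the whole family these genes made up. All 19 Wnt ligands summed to 38.5 ± 4.75 CPM per kilobase at day 0 (SD, n = 4), 53.6 ± 6.33 at day 7 (n = 4), 51.7 ± 5.54 at day 14 (n = 4) and 52.2 ± 2.22 at day 21 (n = 3). Day 0 replicate 1, at 45.2, overlapped with day 7 replicate 4, at 44.5. Within this sum the share of Wnt3a was 21.3% ± 3.35, 14.9% ± 2.64, 12.2% ± 6.77 and 5.78% ± 4.12 at days 0, 7, 14 and 21. That of Wnt2 was 14.5% ± 2.74, 10.0% ± 2.00, 6.05% ± 1.84 and 5.44% ± 0.931. Wnt7a went the other way, from 10.3% ± 2.80 to 20.7% ± 4.16, 26.1% ± 4.13 and 25.3% ± 2.94, and became the leading ligand by mean share from day 7 on. The 13 secreted inhibitors summed to 41.6 ± 9.14, 90.6 ± 10.5, 77.1 ± 35.9 and 116 ± 27.1 CPM per kilobase. Sfrp1 made up 12.8% ± 2.60 of them at day 0 and 52.1% ± 8.84, 42.2% ± 8.03 and 46.9% ± 4.23 later. Most of the remainder was Dkk3, counted here by family name and named after its values were seen. Its share was 68.0% ± 2.75 at day 0 and 39.3% ± 7.99 at day 21, while its own level was 95.7 ± 24.5 and 153 ± 45.7 CPM. The inhibitor sum and the share of Sfrp1 thus depend on counting Dkk3, whose action on Wnt signals was not tested. No test was run on these shares.

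**Figure D4:**
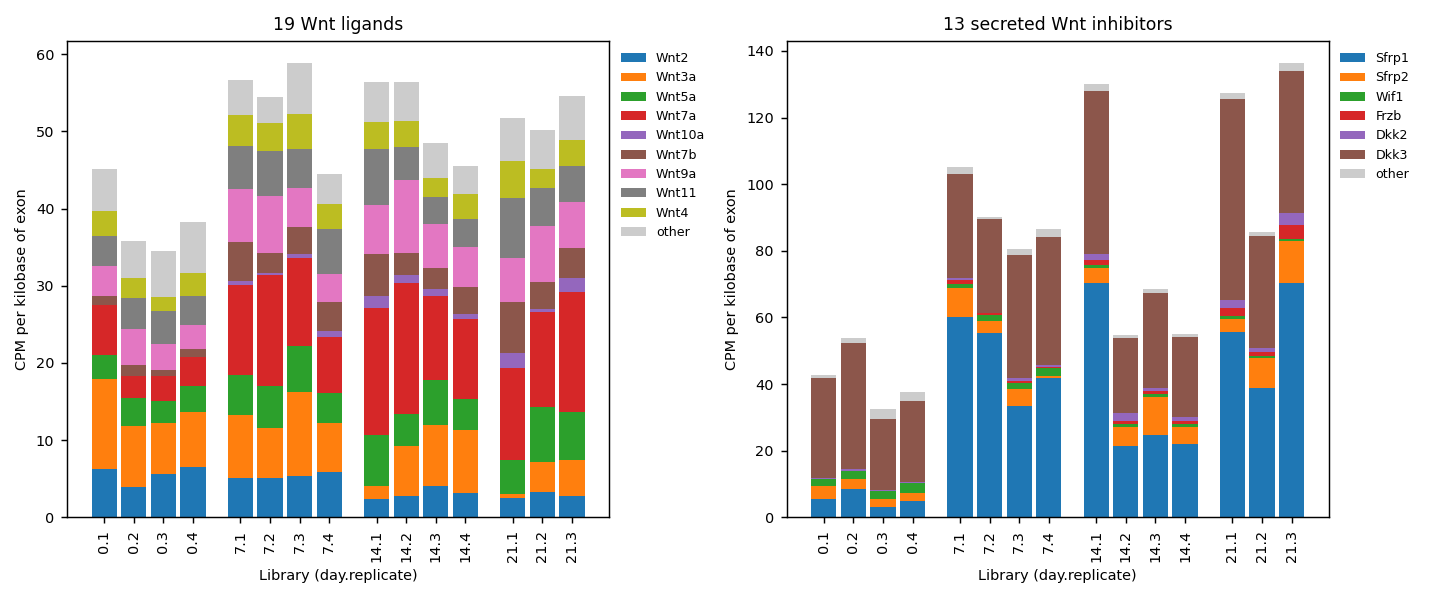
CPM per kilobase of exon of 19 Wnt ligands (left) and 13 secreted Wnt inhibitors (right), stacked by gene, 1 bar per library named by day and replicate. The ligand sum lies between 34.5 and 58.8 in all libraries. The inhibitor sum spans 32.5 to 53.8 at day 0, 80.5 to 105 at day 7 and 85.5 to 136 at day 21. At day 14 it starts at 54.8, just above the highest control. Replicate 1 holds the day 14 maximum of 130, and no further bar of that day exceeds 68.6.

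The rest of the pathway was described with 81 further genes in 8 lists, of which 70 were tested and 6 stand in 2 lists. By edgeR, 12 changed at day 7 (9 higher, 3 lower), 19 at day 14 (11 higher, 8 lower) and 25 at day 21 (14 higher, 11 lower), or 17.1%, 27.1% and 35.7%, beside the 16.1%, 23.1% and 22.5% of all genes. Without day 0 replicate 4 the counts were 9, 15 and 20. All controls of Wnt6, Wnt9b, Fzd10 and Frzb were under the filter level, and over the other 66 genes 11, 18 and 23 changed. Among the other ligands, 2, 3 and 5 of 9 changed at days 7, 14 and 21 (22.2%, 33.3% and 55.6%), Wnt6 being 1 of those at day 21. Limma voom called 3 of the 9 at day 21 and DESeq2 called 6. Wnt7b, a ligand of airway and alveolar epithelium, rose by a log2 fold change of 1.76 (SE 0.28, adjusted p 0.000568), 1.72 (SE 0.28, adjusted p 0.000295) and 2.08 (SE 0.29, adjusted p 0.00012). Wnt2b, which acts with Wnt2 in the embryonic lung, fell by 0.95 (SE 0.25, adjusted p 0.0122), 1.43 (SE 0.25, adjusted p 0.000557) and 1.02 (SE 0.27, adjusted p 0.0103). Wnt10b, a relative of Wnt10a, was lower at day 21 (-0.95, SE 0.34, adjusted p 0.0473). Both genes of ligand processing were higher at day 21, the acyltransferase Porcn by 0.99 (SE 0.23, adjusted p 0.00481) and the carrier Wls by 0.63 (SE 0.11, adjusted p 0.000471).

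Receptors moved in both directions. Of 15 tested, 4 were higher and 1 lower at day 7, 3 and 2 at day 14, and 3 and 1 at day 21, or 33.3%, 33.3% and 26.7% beside 16.1%, 23.1% and 22.5% of all genes, the last of these near the background. Ror2, the receptor kinase for Wnt5a, was at 3.86 ± 0.949 CPM at day 0 and 15.1 ± 1.41 CPM at day 21, and its log2 fold change was 1.64 (SE 0.31, adjusted p 0.00198), 1.75 (SE 0.31, adjusted p 0.000611) and 1.96 (SE 0.33, adjusted p 0.000446). Its relative Ror1 and the receptor Fzd1 were also higher at each day, at 1.10 (SE 0.28, adjusted p 0.00819) and 1.35 (SE 0.20, adjusted p 0.000181) at day 21. Fzd4, a receptor of blood vessels, was lower at day 7 (-0.63, SE 0.16, adjusted p 0.0122) and day 14 (-0.88, SE 0.17, adjusted p 0.000902). In the R-spondin arm, to which Lgr5 belongs, 1, 2 and 3 of 8 genes changed at days 7, 14 and 21 by edgeR, each of them lower, and limma voom called 0, 3 and 2 of the 8. These shares of 12.5%, 25.0% and 37.5% were near those of all genes at days 7 and 14, and 7.36%, 11.2% and 10.1% of all genes were lower. The genes were the ligand Rspo4 and the membrane ubiquitin ligases Rnf43 and Znrf3, which remove Frizzled receptors from the cell surface. The day 21 changes of Rnf43 and Znrf3 were -1.31 (SE 0.31, adjusted p 0.00511) and -0.68 (SE 0.16, adjusted p 0.00572). Rspo4 was 1 of those called at days 14 and 21. It lay over the filter level in 3 day 0 and 2 day 7 libraries and in none later. With 61 reads over the 4 controls, it entered the test mainly through them, so its calls carry no p here.

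Beside Sfrp1, Sfrp2 and Wif1, 1, 2 and 3 of the 8 other inhibitors tested changed at days 7, 14 and 21 (12.5%, 25.0% and 37.5%), each of them higher. At days 7 and 14 these shares were near the 16.1% and 23.1% of all genes called, and 8.78%, 12.0% and 12.4% of all genes were higher. Frzb, a further frizzled-related protein, was 1 of them at each day. Like Wnt10a it entered the test through its later days alone, with 9 reads over the 4 controls, and without it 1 of 7 changed at day 14 and 2 at day 21. Its CPM ranged from 0.0558 to 0.317 at day 0, 1.55 to 3.40 at day 7, 3.09 to 5.32 at day 14 and 3.76 to 13.5 at day 21, so that every bleomycin library lay above every control. Dkk2, which binds LRP5 and LRP6, was higher at day 14 (2.68, SE 0.59, adjusted p 0.00289) and day 21 (3.42, SE 0.62, adjusted p 0.000798), and the membrane inhibitor Apcdd1 at day 21 (0.85, SE 0.18, adjusted p 0.00228). None of the 12 genes of the destruction complex and its transducers was called at any day by edgeR, nor by DESeq2 or limma voom, all with the threshold of 1.5-fold, beside the 16.1%, 23.1% and 22.5% of all genes that edgeR called. In edgeR 2, 1 and 4 of them had an unadjusted p under 0.05 at days 7, 14 and 21, and 1, 1 and 3 of these an adjusted p under 0.05. Of the 8 TCF/LEF factors and nuclear partners, 2 were lower at day 14 and 3 at day 21, or 25.0% and 37.5%, of which the first is near the 23.1% of all genes. These were Lef1 (-1.27, SE 0.25, adjusted p 0.00134 at day 14), Pygo1 (-1.05, SE 0.19, adjusted p 0.000865 at day 21) and Tcf7 (-0.65, SE 0.17, adjusted p 0.00812 at day 21).

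Genes often used as targets of the canonical branch divided. Of 14 tested, 3 were higher and 1 lower at day 7, 3 and 3 at day 14, and 4 and 6 at day 21. In all 28.6%, 42.9% and 71.4% changed, beside 16.1%, 23.1% and 22.5% of all genes. The higher ones were led by Ccn4, a matricellular protein, with log2 fold changes of 3.0 (SE 0.36, adjusted p 6.73e-05), 3.78 (SE 0.36, adjusted p 4.3e-06) and 4.04 (SE 0.38, adjusted p 5.17e-06), and by the growth regulator Myc at 1.38 (SE 0.32, adjusted p 0.00659), 1.58 (SE 0.32, adjusted p 0.00167) and 2.1 (SE 0.34, adjusted p 0.000344). Of the lower ones, Rnf43 (-1.31) and Lef1 (-1.03) had the lowest values at day 21. The median log2 fold change of the 14 targets was -0.20, -0.41 and -0.50 at days 7, 14 and 21.

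**Figure D5:**
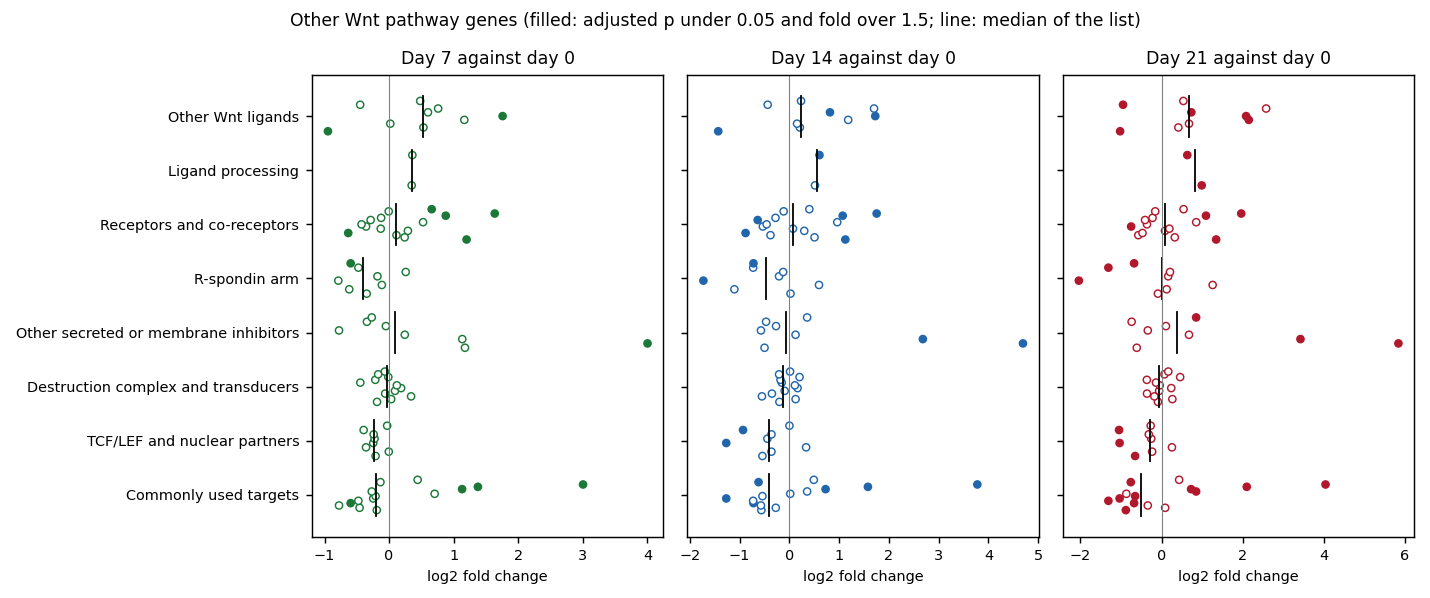
Log2 fold change against day 0 (x axis, scaled per panel) of each tested gene in 8 lists of other Wnt pathway genes, filled where called, with a line at the median of the list. The 12 destruction complex genes hold no filled point in any panel, while targets spread from -1.31 to 4.04 at day 21.

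The genes closest in pattern were found by Pearson's r of log2 CPM over the 15 libraries among genes with a mean of at least 1 CPM, which leaves out Lgr5. All points share the course of injury, so the values are a description. Sfrp1 was closest to the fibrillar collagen gene Col3a1 (r = 0.982), then Chsy3 (0.972) and Sh3pxd2b (0.971). Wnt10a was closest to Tpm1 (0.983), Tnc (0.980), which is also in the activated fibroblast list, and Csf2rb2 (0.976). With 1 read over the day 0 libraries, its values there depend on the prior count. At a prior count of 0.5 the closest were Tnc (0.983), Slc7a8 (0.979) and Col15a1 (0.974), without Tpm1 and Csf2rb2. Wnt3a was closest to Usp46 (0.961), Dynll2 (0.957) and Lamp3 (0.947), which is also in the type 2 cell list. For Axin2 the closest genes were Eps8l1 (0.889), Rtkn2 (0.884), which is also in the type 1 cell list, and Upp2 (0.871). Wnt7a was close to Ralb (0.967) and Galnt1 (0.959), and Wnt5a to Csnk1a1 (0.922), Ism1 (0.915) and Bgn (0.905). Wnt2 was closest to Slc25a35 (0.938), Nrg2 (0.913) and Slc7a10 (0.910), and Wif1 to Sec14l2 (0.964), Alas1 (0.960) and Gsn (0.953). The nearest genes of Sfrp2 were less close, at 0.886 for Olfr1342, 0.869 for Angptl7 and 0.844 for Hal.

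Among the 10 genes themselves, r over the 15 libraries was highest for Wnt10a with Sfrp1 (0.898), Wnt7a with Wnt10a (0.859) and Wnt7a with Sfrp1 (0.842), and Wnt2 with Wif1 stood at 0.834. Once the mean of each day was taken out, the values were 0.559 for Wnt10a with Sfrp1, -0.0421 for Wnt7a with Wnt10a, 0.261 for Wnt7a with Sfrp1 and 0.0549 for Wnt2 with Wif1. Wnt3a and Axin2 had 0.769 over all libraries and 0.672 within days. Day 21 replicate 1 was the lowest library in both genes, whereas day 7 replicate 4 had the lowest Wnt3a and the highest Axin2 of its day.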

How the data were processed

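Whole lungs of C57BL/6 mice were sequenced as day 0 controls or 7, 14 and 21 days after bleomycin, and groups and replicate numbers came from the sample titles. For days 0, 7 and 14 the series description gives fewer replicates than the titles do. The study calls the libraries biological replicates, and its labels name no animal for each, so p-values measure the spread between these libraries. The authors trimmed reads with TrimGalore, aligned them to GRCm38 with HISAT2 2.1.0, discarded multiply aligned reads, and deposited the raw counts that HTSeq 0.6.0 gave per Ensembl gene. The annotation release and strand setting of the counting were not given in the sources used here.

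From these counts, edgeR 4.0.16 in R 4.3.3 was run on 17457 genes kept by filterByExpr, with TMM factors, a design of day alone and 1 quasi-likelihood fit to all 15 libraries (glmQLFit and glmQLFTest). The common biological coefficient of variation was 22.8%. Adjusted p-values are Benjamini-Hochberg over all genes tested. GENCODE M21 gave symbols for 33267 of the 33340 identifiers, with coordinates and exon lengths. CPM per kilobase used merged exon length, and patterns were compared on log2 CPM with a prior count of 2. Intervals of Wnt10a pool the reads of each day, so they cover counting error alone and leave out the spread between libraries. Reads copied by PCR do not count separate molecules, so this error may be understated.

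The 10 genes, the pathway lists and the marker lists were chosen with earlier results of these data known. In each pathway list, at most the 4 genes with the largest log2 fold change among those called against day 0 were named, and the 3 genes closest in pattern to each gene, leaving out predicted genes and antigen receptor segments; 1 gene so chosen is not reported here. Alternatives were DESeq2 1.42.0, limma voom (limma 3.58.1), total count and RLE scaling, dropping the filter or setting it at a mean of 1 CPM, only the 2 groups compared, replicate number as a block, the mitochondrial share as a covariate, libraries of like share (under 2.5% at days 0 and 7, over 3.5% at days 0 and 14), no fold threshold, glmTreat at a fold change of 1.5, and leaving out each library in turn.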

Additional observations from a re-analysis of the deposited data

Results flagged for a closer look

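Sfrp1 in day 14 replicate 1 stood at 307.4 CPM, far from the other 3 libraries of its day at 93.37 to 108.2 CPM. Sfrp2 in day 14 replicate 3 stood at 24.49 CPM, against 9.748 to 12.12 CPM in the other 3. Of 30 groups of 4 libraries examined for the 10 genes, these 2 held a library that far apart, and chance alone marks about 5% of groups. The changes of Wnt2 and Wif1 against day 0 differed between day 7 and day 14 by -0.79 and -0.99 on the log2 scale (adjusted p 0.024 and 0.0175 in edgeR), with both genes lower at day 14 in 4 of 4 libraries. Leaving out day 7 replicate 4 ended both calls (adjusted p 0.0685 and 0.0582). What lies behind these 4 values was not tested.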

How the results depend on the processing

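The number of the 10 genes called stayed at 3 to 5 at day 7, 4 to 7 at day 14 and 4 to 9 at day 21 over all alternatives, against 4, 6 and 8. Tested by glmTreat against a fold change of 1.5, there were 4 genes at day 21, 0 between days 7 and 14, and 5, 9 and 9 of the other pathway genes at days 7, 14 and 21. Between days 7 and 14 the covariate of mitochondrial share gave 1 gene. Leaving out 1 library gave 3 to 5, 5 to 6 and 7 to 8 genes against day 0, 0 to 3 between days 7 and 14, 0 to 0 between days 14 and 21, and 9 to 12, 15 to 24 and 18 to 24 other pathway genes. Calls of Wnt7a and Sfrp1 held at each day, and those of Wif1 at days 14 and 21, under every alternative that gave them a value. Wnt2 at day 7 turned to 0.12 with the covariate and 0.048 among libraries of like share. Wnt3a at day 7 lay between -0.23 and 0.13 when 1 library was left out, and at day 14 turned to 0.13 among libraries of like share. No such set could be made for day 21, which had 1 library over 3.5% and none under 2.5%. The cause of these shifts was not tested. The deviations of same-numbered libraries of different days had correlations of -0.244 to 0.397 over 21 pairs, 8 of them above 0.1. This range cannot tell whether the numbers pair the libraries. With the replicate block, Sfrp2 at day 21 was 1.29 (adjusted p 0.106) and Wnt3a was -1.68 (adjusted p 0.0462). Of the 27 genes closest in pattern, 24 were shared with a prior count of 0.5 and 23 with a mean of at least 5 CPM. Lgr5 had 5 to 24 reads per library and Wnt10a 1 read over the day 0 libraries, and the part of this depth in their results was not tested.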
